A study of Mus musculus with 9 samples.

Results

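The genes described here encode the metalloproteinases that cut the extracellular matrix and cell surface proteins, and the inhibitors that restrain them: matrix metalloproteinases (Mmp), ADAMs (Adam), ADAMTS proteinases (Adamts), ADAMTS-like proteins (Adamtsl) and tissue inhibitors of metalloproteinases (Timp). The rule that picks them reads gene names and no measured value, although it was set with earlier results of these data known, and it gives 83 of the 23358 entries of the gene count table: 23 Mmp, 32 Adam, 19 Adamts, 5 Adamtsl and 4 Timp genes. RNA was sequenced from cultured mesenchymal stem cells, the multipotent stromal cells of bone marrow, taken from adult C57BL/6 mice and used at passages 4 to 10. All cultures were kept in osteogenic medium with ascorbic acid and β-glycerophosphate and lysed on day 4. The siBcat group received an siRNA against β-catenin, the transcriptional co-activator of canonical Wnt signalling that is encoded by Ctnnb1. The GSK126 group received a non-targeting siRNA and 5 µM GSK126, an inhibitor of Ezh2, the enzyme that places the repressive mark H3K27me3. The siCTL group received the non-targeting siRNA alone. Each group had 3 libraries, called biological replicates in the series text; whether they came from separate mice is not given in the sources used here, so p-values measure the spread between these cultures. The treatment label of siBcat also lists 5 µM GSK126, against its titles, its source names and the series text, which give siBcat no inhibitor; the titles were followed.

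MMPs are secreted or membrane-bound zinc proteinases, made as inactive precursors, that cleave collagens and other matrix proteins. ADAMs cut the ectodomains of membrane proteins such as Notch and growth factor precursors, and ADAMTS enzymes cleave proteoglycans and trim procollagens. TIMPs bind the active site of these enzymes, and in bone the balance between both governs collagen turnover: Mmp13 is the main interstitial collagenase of the mouse skeleton, and Mmp14 is the membrane-bound collagenase that activates Mmp2 with Timp2 as a bridge.

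The summed counts per library lay between 42324200 and 55898774, and 3 counts, taken as the detection floor, corresponded to 0.0530 to 0.0730 CPM (counts scaled to library depth). Levels are given after scaling between libraries by the trimmed mean of M values, log2 fold changes carry a standard error (SE), and a difference counted as called when its adjusted p was under 0.05. Ctnnb1 was at 19.1 to 19.3 CPM in siBcat and at 906 to 950 CPM in GSK126, against 854 to 879 CPM in siCTL. Of 11 stromal markers 10 had reads: Col1a1, Cxcl12 and Pdgfrb were abundant, Nt5e and Lepr stayed under 2 CPM in every library, and Thy1 was at 0 in all of them. Haematopoietic and macrophage markers, of which the table has 9 of 10, summed to 12.04 to 12.7 CPM in siBcat, 9.36 to 11.9 CPM in GSK126 and 11.7 to 14.3 CPM in siCTL, with Ptprc and Tyrobp at 0. Neutrophil markers stayed at or under 1.16 CPM in sum, with S100a9, Ltf and Mpo at 0, and 6 endothelial markers at or under 2.26 CPM in sum. The osteoclast markers Calcr and Dcstamp were at 0, and that list's sum, nearly all Ctsk, was 110 to 115 CPM in siBcat, 138 to 149 CPM in GSK126 and 126 to 131 CPM in siCTL. The library GSK126 replicate 3 stood apart from the other two of its group: a trend on gene length took 21.4% of the variance of its deviations from the group mean, against 7.08 and 9.15% in GSK126 replicates 1 and 2 and at most 0.700% in the siBcat and siCTL libraries. Where leaving it out changes a call of the metalloproteinase or inhibitor genes, the value without it is given.

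Of the 83 genes 44 passed the filter on low counts and were tested, 18 had reads but at most 12 counts in any library, and 21 had no read in any library. The genes without reads include Mmp1a, Mmp1b, Mmp7 and Mmp20, Adamts18 and Adamts20, Adamtsl2, and 14 ADAMs, several of which are known from testis and sperm. Mmp9, a gelatinase of osteoclasts and neutrophils, had 4, 0 and 0 counts in siBcat and 0, 10 and 2 in GSK126, against 2, 4 and 2 in siCTL, around the detection floor in each group. Mmp8, the neutrophil collagenase, had 0 to 2 counts per library. Mmp10 had 0, 4 and 2 counts in siBcat and 8, 2 and 2 in GSK126, against 0 in each siCTL library, and was not tested. Of the 12 ADAM genes on chromosome 8, 3 were tested and 8 had no read.

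Of the 10 Mmp genes that lie next to each other on chromosome 9 (7272514 to 7699585, GRCm38), 2 were tested, Mmp13 and Mmp3, and 4 had no read. Their promoters were searched for short motifs. The next 4 windows show the layout for Mmp13, the abundant gene of the cluster, and for 3 neighbours with few or no reads. Each runs from 100 bases before to 20 bases after the annotated gene start, 5′ to 3′, from RefSeq on GRCm38.p6. Capitals mark the AP-1 motif TGANTCA, bound by Fos and Jun proteins, and the TATA motif TATAAA.

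Mmp13, chr9:7272414-7272533, plus strand: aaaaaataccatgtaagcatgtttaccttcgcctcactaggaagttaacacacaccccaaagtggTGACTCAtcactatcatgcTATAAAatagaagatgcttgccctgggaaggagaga
Mmp3, chr9:7445722-7445841, plus strand: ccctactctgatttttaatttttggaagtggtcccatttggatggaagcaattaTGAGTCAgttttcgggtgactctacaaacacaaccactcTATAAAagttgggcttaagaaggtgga
Mmp10, chr9:7502242-7502361, plus strand: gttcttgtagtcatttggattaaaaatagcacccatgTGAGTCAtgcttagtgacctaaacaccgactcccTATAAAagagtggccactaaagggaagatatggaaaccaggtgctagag
Mmp1a, chr9:7464041-7464160, plus strand: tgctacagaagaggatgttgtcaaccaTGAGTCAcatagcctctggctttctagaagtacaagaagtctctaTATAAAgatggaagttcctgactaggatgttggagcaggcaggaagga

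In windows of 300 bases, from 250 before to 50 after the start, 52 of the 83 genes had an entry in the promoter table. TGANTCA, read on both strands, stood in 8 of the 10 clustered Mmp genes (Mmp1a, Mmp1b, Mmp3, Mmp7, Mmp10, Mmp12, Mmp13 and Mmp20) and in 4 of 42 other genes of the families (Adam19, Adam1b, Adam25 and Adam29), of which 1 of the 24 tested, against 7.81% of all 32851 promoters. TATAAA stood in 9 of the 10 and in 6 of the 42, of which 1 of the 24 tested, Adamts1, against 13.62% of all promoters. CTTTGA, the core of the TCF/LEF motif through which β-catenin acts, stood in 2 of the 10 (Mmp1a and Mmp7) and 6 of the 42, of which 2 of the 24 tested (Adam19 and Timp1), against 16.0%. These matches are letters in a window and say nothing of binding. The cluster was also poor in CG pairs, with a median of 1 per window (range 0 to 4, 8 genes with a single entry), against 19 (2 to 44) in 7 other Mmp genes and 7 over all promoters.

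**Figure D1:**
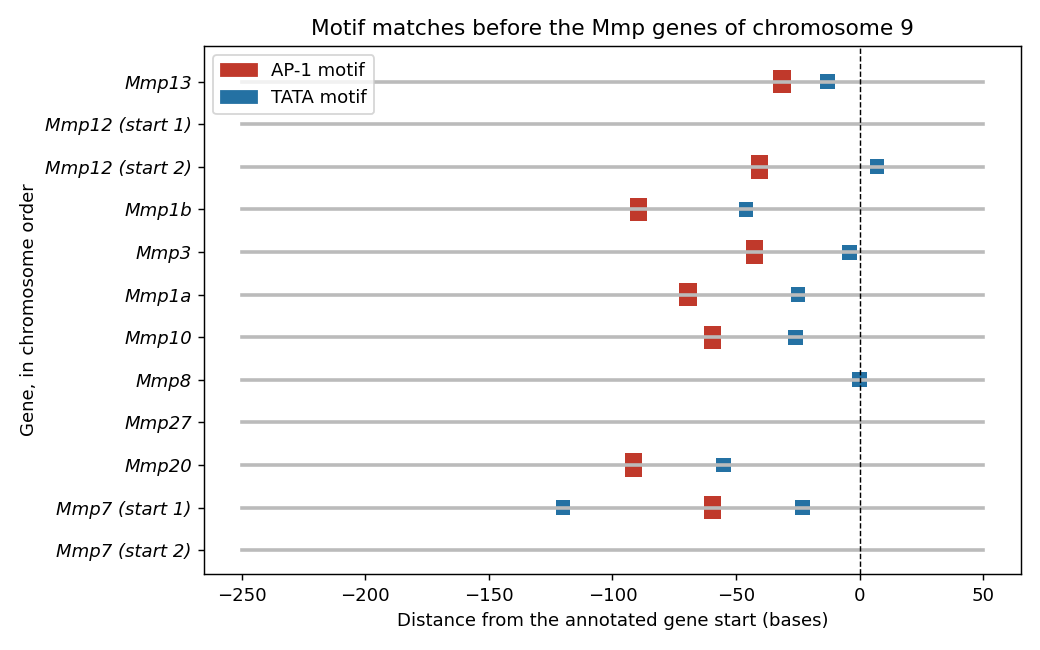
Positions of the AP-1 motif TGANTCA (red) and the TATA motif TATAAA (blue) around the annotated starts of the 10 Mmp genes on chromosome 9, in chromosome order (y axis); the x axis is the distance from the start in bases and the grey bar the 300-base window. In 8 of the 10 genes the AP-1 match lies before the start, and a TATA match lies downstream of it; genes with 2 entries have a row each.

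Outside the cluster, Timp1 rose and Adamts1 fell more than 2-fold in siBcat, and Timp3 rose with GSK126. Their windows of 300 bases (250 before to 50 after the start) follow. Capitals mark CTTTGA in Timp1, TATAAA in Adamts1 and every CG pair in Timp3, of which there are 24.

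Timp1, chrX:20869916-20870215, plus strand: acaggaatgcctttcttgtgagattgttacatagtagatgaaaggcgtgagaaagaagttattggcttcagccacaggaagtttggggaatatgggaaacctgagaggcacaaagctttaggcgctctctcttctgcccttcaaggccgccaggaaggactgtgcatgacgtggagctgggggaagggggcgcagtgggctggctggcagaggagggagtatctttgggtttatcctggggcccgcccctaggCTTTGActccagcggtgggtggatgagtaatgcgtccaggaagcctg
Adamts1, chr16:85803064-85803363, minus strand: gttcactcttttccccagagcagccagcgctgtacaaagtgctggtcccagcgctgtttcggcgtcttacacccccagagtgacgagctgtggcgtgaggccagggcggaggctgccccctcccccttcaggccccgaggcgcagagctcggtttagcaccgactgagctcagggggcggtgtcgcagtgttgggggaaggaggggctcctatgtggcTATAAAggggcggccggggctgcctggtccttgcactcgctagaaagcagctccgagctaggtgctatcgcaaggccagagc
Timp3, chr10:86300162-86300461, plus strand: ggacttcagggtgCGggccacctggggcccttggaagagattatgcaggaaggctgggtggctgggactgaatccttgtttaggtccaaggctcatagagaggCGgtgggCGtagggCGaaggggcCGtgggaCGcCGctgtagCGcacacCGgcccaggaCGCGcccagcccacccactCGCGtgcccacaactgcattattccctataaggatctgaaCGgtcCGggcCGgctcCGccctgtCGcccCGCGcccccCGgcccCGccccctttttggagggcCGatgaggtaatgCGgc

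Among genes with a single promoter entry, the median number of CG pairs was 23 in the 24 tested and 2 in the 24 not tested. In GSK126 it was 25 (range 24 to 46) in 5 of the 8 genes higher than in siCTL. In 4 of the 9 lower ones it was 13 (6 to 44), so the ranges overlap. In siBcat it was 8 (1 to 46) in 5 of the 6 genes higher than in siCTL and 22 (6 to 44) in 11 of the 20 lower ones. The other called genes, Adamts15 and Adam12 among them, had no entry or more than 1.

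**Figure D2:**
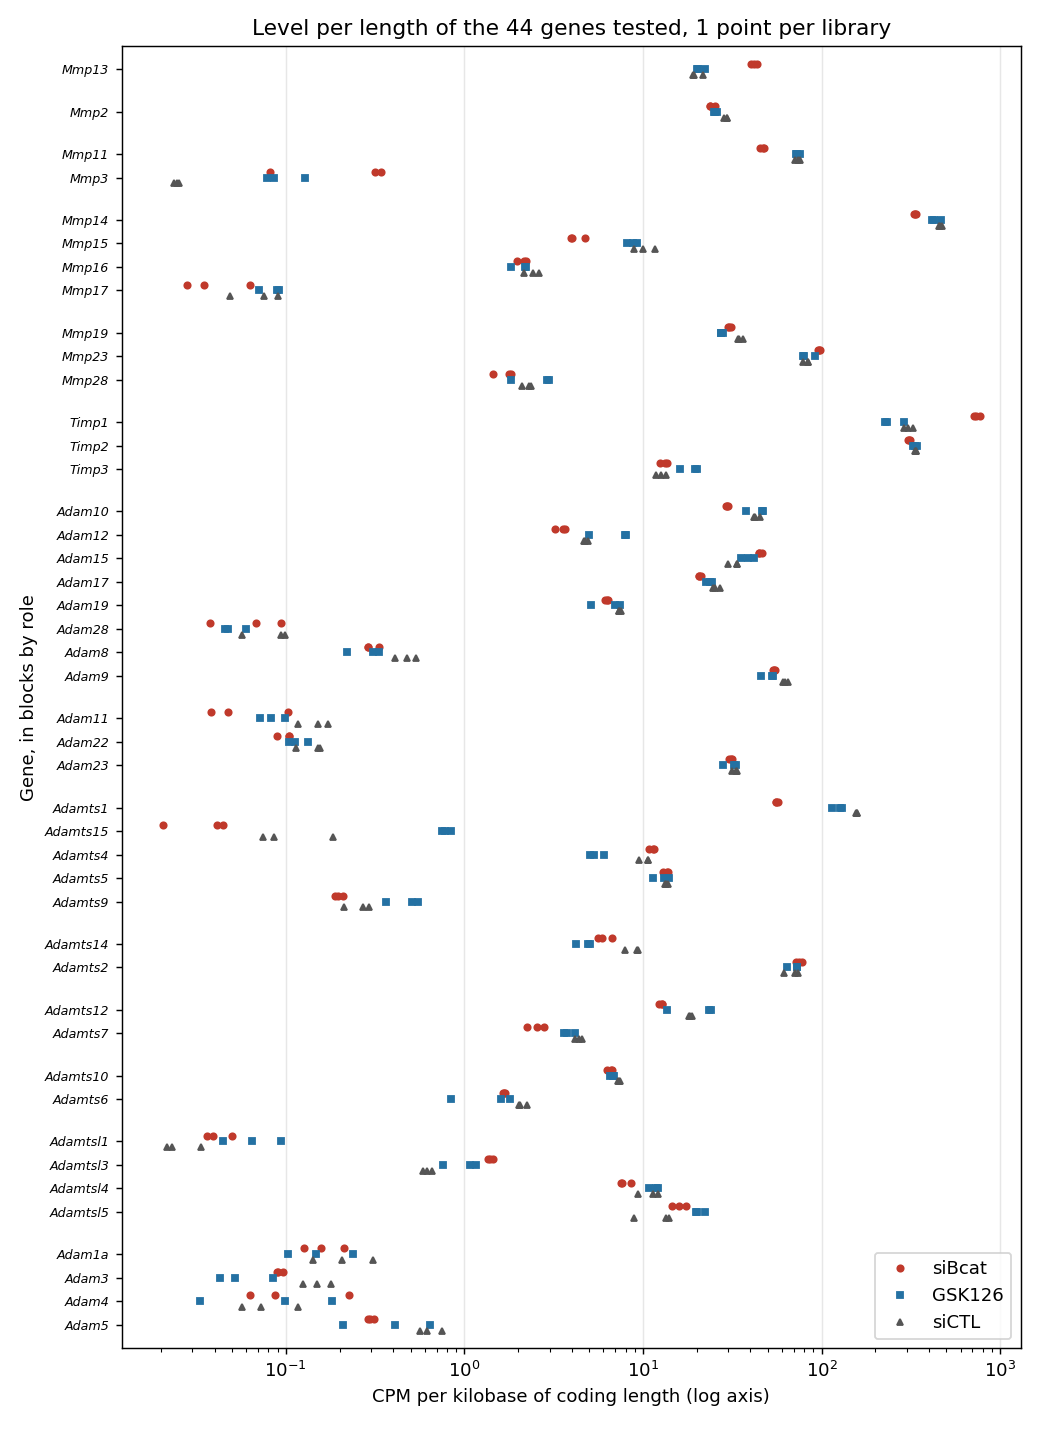
Level per length (CPM per kilobase of the table's coding length, log axis) of the 44 genes tested, in blocks by role, with 1 point per library; circles are siBcat, squares GSK126 and triangles siCTL. Timp1, Mmp14 and Timp2 are the highest, siBcat stands apart to the right in Timp1 and Mmp13 and to the left in Adamts1 and Mmp15, and GSK126 stands apart to the right in Adamts15.

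Per kilobase of length, inhibitors and Mmp14 led. Timp1 averaged 739 CPM per kilobase in siBcat and 248 in GSK126, against 307 in siCTL. Mmp14 stood at 333 in siBcat and 435 in GSK126, against 463 in siCTL, and Timp2 at 309 in siBcat and 334 in GSK126, against 337 in siCTL. The order of these genes differed between groups: Timp1 was above Mmp14 in siBcat, and below both Mmp14 and Timp2 in GSK126 and siCTL. Next came Adamts1 (56.1 in siBcat, 124 in GSK126, 157 in siCTL), Mmp23 (96.7 in siBcat, 83.4 in GSK126, 82.0 in siCTL), Mmp11 (46.7 in siBcat, 73.4 in GSK126, 73.8 in siCTL) and Adamts2 (74.7 in siBcat, 69.9 in GSK126, 68.7 in siCTL). Summed over the 83 genes, CPM was 5080 ± 71.5 in siBcat and 5460 ± 121 in GSK126, against 5816 ± 33.5 in siCTL (SD, n = 3 each). Of that sum, which is not divided by length and so counts reads, Timp genes held 36.2% in siBcat and 27.8% in GSK126, against 26.7% in siCTL. Adamts genes held 17.0% in siBcat and 22.0% in GSK126, against 24.1% in siCTL.

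**Figure D3:**
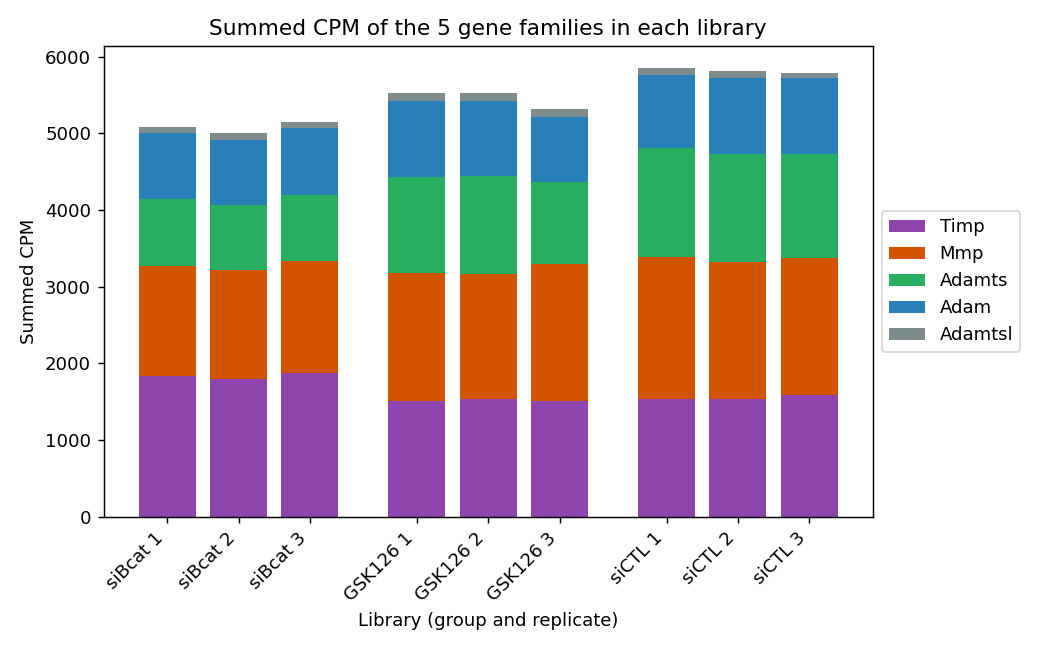
Summed CPM of the 5 gene families (stacked bars, linear y axis from 0) in each of the 9 libraries. The siBcat libraries have the lowest total, with more Timp and less Adamts and Mmp than the siCTL libraries.

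The comparison of siBcat with siCTL asks what loss of β-catenin does to these genes. The inhibitor Timp1, the collagenase Mmp13 and the ADAMTS-like gene Adamtsl3 rose more than 2-fold, and the proteoglycan-cleaving Adamts1 and the membrane-type Mmp15 fell more than 2-fold. Mmp14, Mmp11, Adam10, Adam17 and Adamts7 fell by less. Of the 44 genes tested 26 were called, 6 higher and 20 lower, which is 59.1%, against 35.2% of the 13240 genes tested in all (17.7% higher, 17.5% lower). Their median log2 fold change was -0.30, against 0.00 over all genes tested. Library ranges were separate in 36 of the 44, against 55.2% of all genes. At least 2-fold higher were 4 genes and at least 2-fold lower 5, against 2.0% and 2.55% of all genes. The 4 include Mmp3, which lay under the floor of 3 counts in siCTL. Without siBcat replicate 2 the count of lower genes was 12.

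The comparison of GSK126 with siCTL asks what inhibition of Ezh2 does. Adamts15 rose 6.91-fold at a low level, Timp3, Adamts9, Adamtsl3 and Adamtsl5 rose less, and Adamts4 and Adamts14 each fell 1.88-fold. Of the 44 genes 17 were called, 8 higher and 9 lower, which is 38.6%, against 25.0% of all genes tested (14.3% higher, 10.7% lower). The median was -0.09, against 0.01 over all genes, and 23 of the 44 did not overlap, against 42.1%. At least 2-fold higher were 2 genes and at least 2-fold lower 1, Adam3, against 2.27% and 0.446% of all genes. Without siCTL replicate 3 the count of higher genes was 5. Of all calls in this comparison 57.1% were higher, and 40.4% once the trend on coding length was removed. Set directly against each other, siBcat and GSK126 differed in 23 of the 44 (9 higher in siBcat, 14 lower), which is 52.3%, against 41.2% of all genes tested (19.3% higher, 21.9% lower). Ranges were separate in 25 of the 44, against 52.5% of all genes. Without GSK126 replicate 2, or with library size as the only scaling, the count of higher genes was 5. Of all calls in this contrast 46.8% were higher, against 33.4% with library size only and 60.3% with the length trend removed.

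Both treatments are set against the same siCTL libraries, so that their values are given side by side. Past the threshold in both were 6 genes that fell with each (Mmp2, Mmp19, Adam8, Adam9, Adamts1 and Adamts14), 2 that rose with each (Adam15 and Adamtsl3), and 3 that moved in opposite directions: Timp1 rose in siBcat and fell in GSK126, while Adam12 and Adamts15 fell in siBcat and rose in GSK126. Called in siBcat and not in GSK126 were 3 higher and 12 lower genes, called in GSK126 and not in siBcat 4 higher and 2 lower ones, and 12 were called in neither. Of all genes tested 35.2% were called in siBcat and 25.0% in GSK126. Their shares in these joint classes were not computed, so the joint counts only describe the genes listed. Whether the effects of the treatments differ is tested by the direct contrast of siBcat with GSK126, given gene by gene below.

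**Figure D4:**
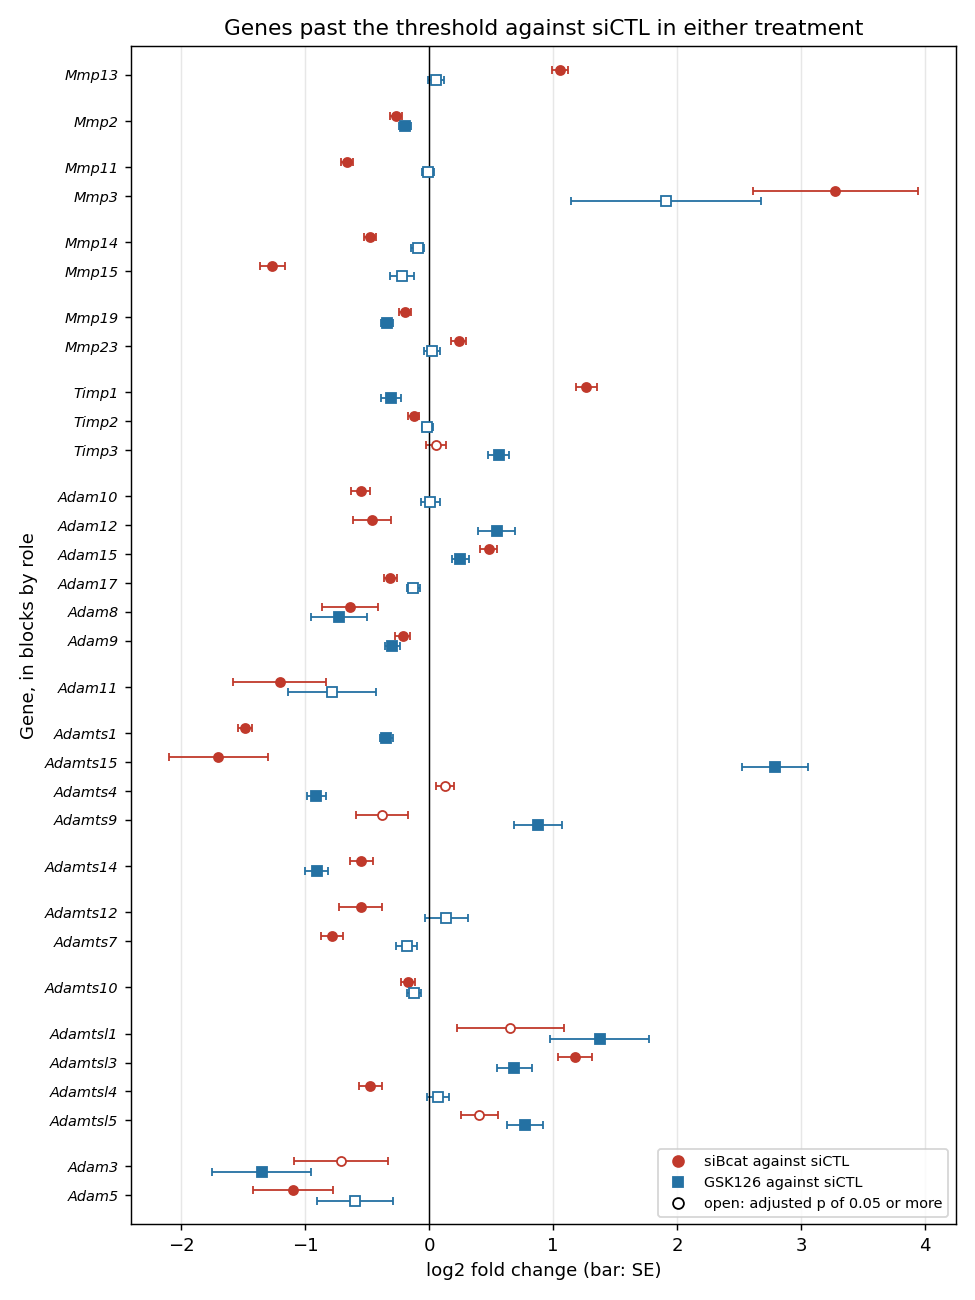
Log2 fold change against siCTL with its SE (bar) for the 32 genes called in at least 1 treatment; circles are siBcat, squares GSK126, and open symbols an adjusted p of 0.05 or more. Timp1, Adam12 and Adamts15 lie on opposite sides of 0; the Mmp3 value rests on 2 counts in each siCTL library and is no measure of size.

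Among the inhibitors, Timp1, a soluble inhibitor of most MMPs (chromosome X, 20870166 to 20874735), stood at 652, 638 and 683 CPM in siBcat and at 206, 201 and 256 CPM in GSK126, against 270, 258 and 291 CPM in siCTL. The siBcat libraries were far above all others, and GSK126 lay below siCTL in each library. The log2 fold change was 1.27 in siBcat (SE 0.08, adjusted p = 3.01e-07) and -0.31 in GSK126 (SE 0.08, adjusted p = 0.0182), and siBcat exceeded GSK126 by 1.57 (SE 0.08, adjusted p = 3.15e-08). The fall in GSK126 was no longer called without siCTL replicate 3 (adjusted p = 0.0705), GSK126 replicate 1 (0.0580) or GSK126 replicate 2 (0.0502), nor with library size as the only scaling (0.0509). Timp1 lies inside the gene Syn1 on the other strand, a synapsin gene of neurons. Syn1 stood at 6.23, 7.12 and 6.70 CPM in siBcat and 3.14, 2.99 and 2.41 CPM in GSK126, against 3.98, 3.22 and 3.56 CPM in siCTL. It rose in siBcat too, by 0.90 (SE 0.13, adjusted p = 0.000181); its part in the Timp1 value was not tested, and whether counting used strand is not given in the sources used here.

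Timp2, which also helps Mmp14 to activate Mmp2 (chromosome 11, 118301069 to 118355740), stood at 1122, 1104 and 1135 CPM in siBcat and 1215, 1237 and 1174 CPM in GSK126, against 1208, 1223 and 1229 CPM in siCTL. It was a little lower in siBcat, by 0.12 (SE 0.04, adjusted p = 0.0472), a call that was lost without any 1 of the 3 siBcat libraries (adjusted p 0.0942 to 0.144), any 1 of the 3 siCTL libraries (0.0920 to 0.101) or GSK126 replicate 1 (0.0617). In GSK126 its log2 fold change was -0.01 (SE 0.04, adjusted p = 0.854). Between siBcat and GSK126 it was -0.11 (SE 0.04, adjusted p = 0.0649), and -0.13 with a call without GSK126 replicate 3 (0.00117). Timp3, the matrix-bound inhibitor that also acts on Adam17 and on aggrecanases (chromosome 10, 86300372 to 86349506), stood at 63.5, 58.7 and 62.0 CPM in siBcat and 91.5, 94.3 and 75.3 CPM in GSK126, against 59.2, 55.1 and 62.8 CPM in siCTL. Each GSK126 library was above all others, with a log2 fold change of 0.56 (SE 0.08, adjusted p = 0.000315) against siCTL. In siBcat Timp3 stayed at 0.06 (SE 0.08, adjusted p = 0.628), and siBcat was below GSK126 (log2 fold change -0.50, SE 0.08, adjusted p = 0.000303). Timp3 shares 1733 exon bases with Syn3 on the other strand, which had 400 counts over the 9 libraries, against 29580 for Timp3. Timp4 had 6, 2 and 8 counts in siBcat and 8, 6 and 8 in GSK126, against 0, 4 and 6 in siCTL, too few to test. Per kilobase, the ratio of Timp1 to Timp2 was 2.39 ± 0.0536 in siBcat and 0.747 ± 0.124 in GSK126, against 0.912 ± 0.0517 in siCTL (SD, n = 3 each), so the more abundant inhibitor was Timp1 in siBcat and Timp2 in the other groups.

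**Figure D5:**
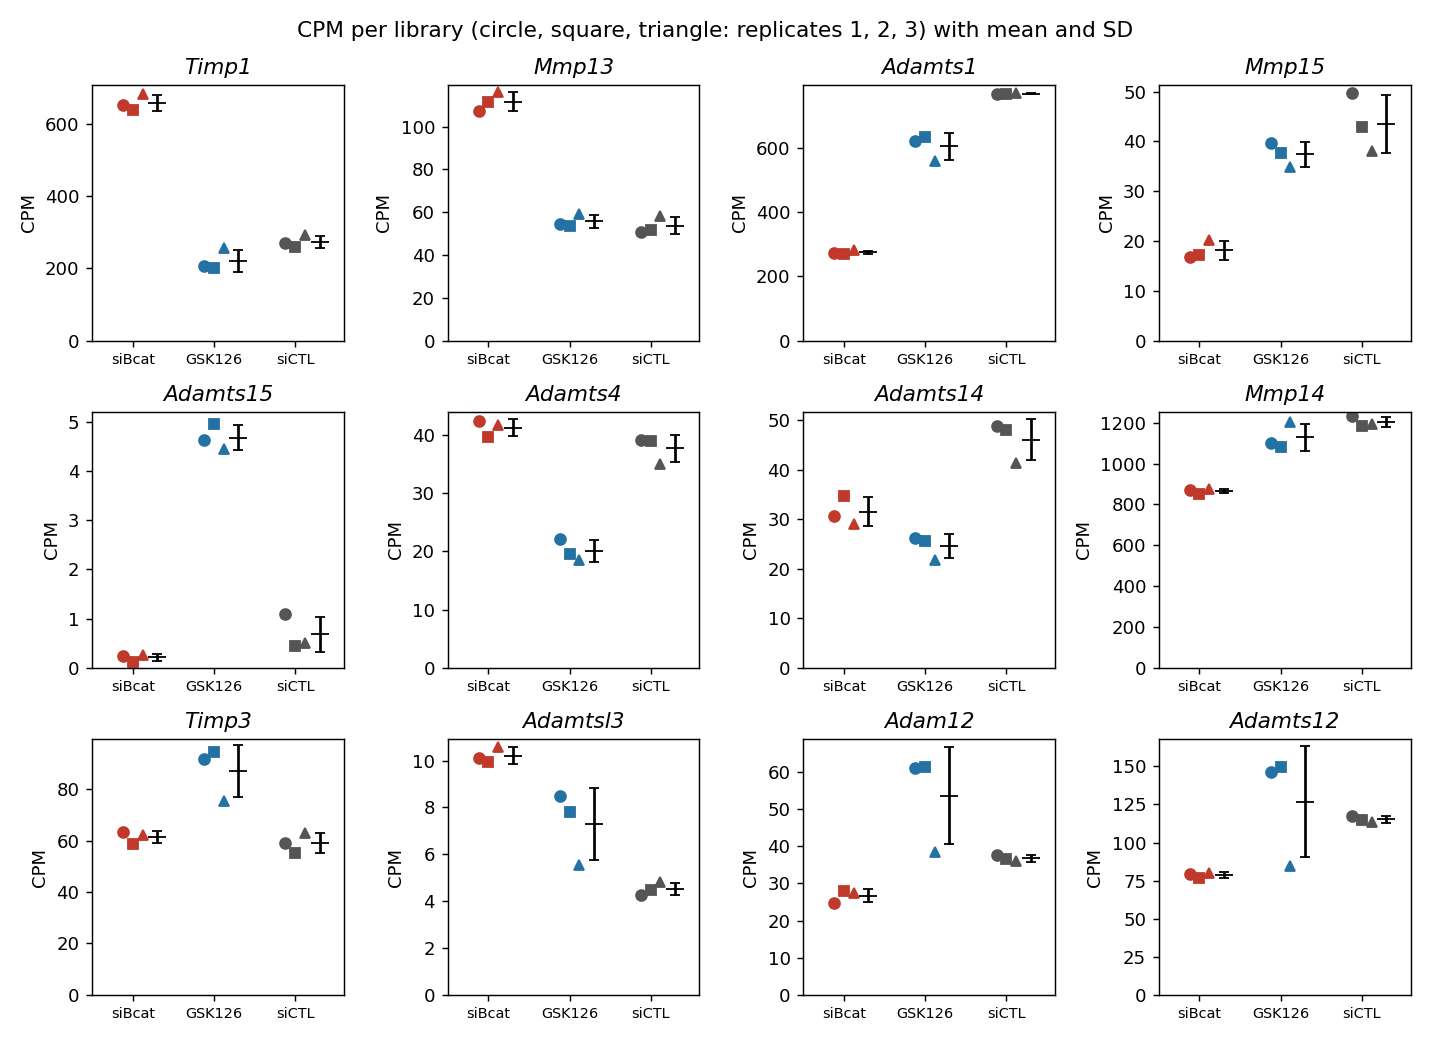
CPM per library (linear axis from 0) of 12 genes named for their changes, with siBcat left of GSK126 and siCTL; circle, square and triangle are replicates 1, 2 and 3, and the bar gives the mean and SD of 3 libraries. Timp1 and Mmp13 are high in siBcat, Adamts15 and Timp3 in GSK126, and GSK126 replicate 3 is far below its group in Adam12 and Adamts12.

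The collagenases Mmp13 and Mmp14 moved in opposite directions in siBcat. Mmp13, collagenase 3 (chromosome 9, 7272514 to 7283331), stood at 107, 111 and 116 CPM in siBcat and 54.4, 53.5 and 59.3 CPM in GSK126, against 50.9, 51.7 and 58.2 CPM in siCTL. The siBcat libraries lay about 2-fold above both other groups, which overlap. The log2 fold change was 1.06 in siBcat (SE 0.07, adjusted p = 1.3e-07) and 0.06 in GSK126 (SE 0.07, adjusted p = 0.568), and siBcat exceeded GSK126 by 1.00 (SE 0.07, adjusted p = 1.27e-07). Its neighbour Mmp3, stromelysin 1, had 6, 28 and 28 counts in siBcat and 8, 10 and 8 in GSK126, against 2, 2 and 2 in siCTL. It was called in siBcat against siCTL (adjusted p = 0.00209) and against GSK126 (0.0470), and not in GSK126 against siCTL (0.0862). The call against GSK126 was lost without siBcat replicate 2 (adjusted p = 0.163) or 3 (0.181), without any 1 GSK126 library (0.0563 to 0.134) and without any 1 siCTL library (0.0607 to 0.0659); no fold is given, since siCTL lay under the floor of 3 counts.

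Mmp14, or MT1-MMP (chromosome 14, 54431612 to 54445364), was the most abundant MMP, with 869, 853 and 874 CPM in siBcat and 1102, 1081 and 1205 CPM in GSK126, against 1233, 1186 and 1192 CPM in siCTL. The siBcat libraries lay below all others, with a log2 fold change of -0.48 (SE 0.05, adjusted p = 1.5e-05) against siCTL and -0.38 (SE 0.05, adjusted p = 6.61e-05) against GSK126. In GSK126 the value was -0.09 (SE 0.05, adjusted p = 0.209), and -0.14 with a call without GSK126 replicate 3 (adjusted p = 0.00126). Mmp15, or MT2-MMP, stood at 16.8, 17.2 and 20.2 CPM in siBcat and 39.8, 37.7 and 34.8 CPM in GSK126, against 49.7, 42.9 and 38.1 CPM in siCTL. It fell by 1.27 on the log2 scale in siBcat (SE 0.10, adjusted p = 1.28e-06), and its -0.22 in GSK126 (SE 0.10, adjusted p = 0.119) was called only without siCTL replicate 3 (0.0458). Of 6 membrane-type genes 4 were tested, and the other two, Mmp16 and Mmp17, were not called in siBcat. The ratio of Mmp13 to Mmp14 per kilobase was 0.125 ± 0.00465 in siBcat and 0.0479 ± 0.00012 in GSK126, against 0.0433 ± 0.00374 in siCTL (SD, n = 3 each).

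Mmp2, gelatinase A, the enzyme that Mmp14 activates, stood at 77.3, 71.8 and 72.5 CPM in siBcat and 77.3, 75.9 and 79.4 CPM in GSK126, against 90.0, 90.2 and 86.2 CPM in siCTL. Both treatments lay below siCTL, by -0.27 in siBcat (SE 0.05, adjusted p = 0.00144) and -0.20 in GSK126 (SE 0.05, adjusted p = 0.0145), and they did not differ detectably from each other (-0.07, SE 0.05, adjusted p = 0.298). Mmp11, stromelysin 3, stood at 106, 102 and 107 CPM in siBcat and 163, 162 and 170 CPM in GSK126, against 171, 166 and 160 CPM in siCTL. It fell by 0.66 on the log2 scale in siBcat (SE 0.05, adjusted p = 7.04e-07), and GSK126 overlapped siCTL (-0.01, SE 0.05, adjusted p = 0.922). Mmp19, a secreted MMP of many tissues, stood at 104 to 108 CPM in siBcat and 94.2 to 96.5 CPM in GSK126, against 118 to 125 CPM in siCTL. Its log2 fold changes were -0.19 in siBcat (adjusted p = 0.0073) and -0.34 in GSK126 (adjusted p = 0.000251). Mmp19 shares 789 exon bases with Tmem198b on the other strand, which rose in siBcat (0.41) and fell in GSK126 (-0.32). Mmp23, an MMP anchored by its amino terminus, was at 136 to 140 CPM in siBcat and 113 to 131 CPM in GSK126, against 113 to 120 CPM in siCTL. It rose in siBcat by 0.24 (SE 0.06, adjusted p = 0.00922), with 0.02 (adjusted p = 0.804) in GSK126.

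Of 9 listed ADAMs that shed ectodomains, 8 were tested, and 1 rose, 5 fell and 2 were not called in siBcat, against 2, 2 and 4 in GSK126. Called were thus 75.0% in siBcat and 50.0% in GSK126, against 35.2% and 25.0% of all genes tested. Adam10, the main sheddase of Notch receptors (chromosome 9, 70678997 to 70780229), stood at 133, 135 and 138 CPM in siBcat and 212, 215 and 173 CPM in GSK126, against 192, 195 and 208 CPM in siCTL. It was lowest in siBcat, by -0.55 against siCTL (SE 0.07, adjusted p = 0.000101) and -0.56 against GSK126 (SE 0.07, adjusted p = 6.45e-05), and GSK126 overlapped siCTL (0.01, SE 0.07, adjusted p = 0.933). Adam17, which releases TNF and EGF receptor ligands (chromosome 12, 21323509 to 21373632), stood at 90.4, 90.6 and 92.9 CPM in siBcat and 107, 105 and 99.3 CPM in GSK126, against 109, 112 and 119 CPM in siCTL. The siBcat value was -0.31 against siCTL (SE 0.05, adjusted p = 0.000496) and -0.19 against GSK126 (SE 0.05, adjusted p = 0.0124); the second was lost without GSK126 replicate 1 (0.0649) or siBcat replicate 2 (0.0510). GSK126 gave -0.13 (SE 0.05, adjusted p = 0.0885). Adam17 shares 311 exon bases with Iah1 on the other strand, which fell by 2.89 on the log2 scale in siBcat (adjusted p = 2.19e-09) and had 14618 counts in all, against 43714 for Adam17. How much of the Adam17 value this overlap carries was not tested.

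Adam12, a sheddase of mesenchymal cells (chromosome 7, 133883199 to 134232146), stood at 24.7, 28.0 and 27.3 CPM in siBcat and 60.9, 61.4 and 38.5 CPM in GSK126, against 37.7, 36.6 and 35.9 CPM in siCTL. All siBcat libraries lay below and all GSK126 libraries above siCTL, but GSK126 replicate 3 by little. The log2 fold change was -0.46 in siBcat (SE 0.15, adjusted p = 0.0395), 0.54 in GSK126 (SE 0.15, adjusted p = 0.025) and -1.01 between siBcat and GSK126 (SE 0.15, adjusted p = 0.000474). The siBcat call was lost without any 1 of the siBcat or siCTL libraries (adjusted p 0.0680 to 0.107), and the GSK126 call without GSK126 replicate 1 (0.0873), GSK126 replicate 2 (0.0748) or any 1 siCTL library (0.0604 to 0.0872). Without GSK126 replicate 3 both held, at 3.53e-07 in siBcat and 2.43e-09 in GSK126. Adam15 rose in both, to 138, 134 and 134 CPM in siBcat and 116, 105 and 125 CPM in GSK126, against 101, 101 and 89.3 CPM in siCTL. The fold changes were 0.48 in siBcat (SE 0.07, adjusted p = 0.000167) and 0.25 in GSK126 (SE 0.07, adjusted p = 0.0179). The GSK126 call was lost without siCTL replicate 3 (0.0784). Adam9 was lower in both, at 212 to 219 CPM in siBcat and 184 to 214 CPM in GSK126, against 242 to 258 CPM in siCTL, with -0.21 in siBcat (adjusted p = 0.0164) and -0.30 in GSK126 (adjusted p = 0.00343). The siBcat call of Adam9 was lost without siBcat replicate 2 (0.0665) or siCTL replicate 2 (0.0615). Adam19 stood at 40.6, 40.0 and 39.3 CPM in siBcat and 47.3, 44.6 and 32.6 CPM in GSK126, against 47.1, 48.2 and 47.1 CPM in siCTL. Its values, -0.25 in siBcat against siCTL (SE 0.11, adjusted p = 0.0942) and -0.05 in siBcat against GSK126 (SE 0.11, adjusted p = 0.728), were called without GSK126 replicate 3, at -0.25 (0.000202) and -0.20 (0.00403).

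Low-level ADAMs carried weaker calls. Adam8, best known from leukocytes, stood at 0.875 to 1.01 CPM in siBcat and 0.671 to 1.01 CPM in GSK126, against 1.23 to 1.63 CPM in siCTL, with -0.63 in siBcat (SE 0.23, adjusted p = 0.045) and -0.73 in GSK126 (SE 0.23, adjusted p = 0.0325). Of 10 haematopoietic markers, whose sums are given above, Ptprc and Tyrobp were at 0 and 5 were tested: 2 rose and 1 fell in siBcat, and 1 fell in GSK126. Called were thus 3 of the 5 in siBcat and 1 of the 5 in GSK126, against 35.2% and 25.0% of all genes tested. The GSK126 share is no higher than that of all genes. The part of these markers in the Adam8 value was not tested. In siBcat the Adam8 call was lost without any 1 siBcat library (0.0675 to 0.116), siCTL replicate 1 (0.145), siCTL replicate 3 (0.0938) or GSK126 replicate 2 (0.0524), and in GSK126 without siCTL replicate 1 (0.108), siCTL replicate 3 (0.0802) or GSK126 replicate 1 (0.110). Adam11, a brain ADAM without an active site, fell by 1.21 on the log2 scale in siBcat (SE 0.38, adjusted p = 0.025). Its levels were 0.195 to 0.525 CPM in siBcat, against 0.594 to 0.882 CPM in siCTL, and the call was lost without siBcat replicate 1 (0.0907), siBcat replicate 2 (0.0979), siCTL replicate 1 (0.0640) or siCTL replicate 2 (0.0910). Adam5, a sperm ADAM, fell by 1.10 in siBcat (SE 0.33, adjusted p = 0.0192), a call lost without any 1 siBcat library (0.0508 to 0.0642) or siCTL replicate 3 (0.0706). Without GSK126 replicate 3 Adam5 was also lower in siBcat than in GSK126 (-0.83, adjusted p = 0.0124), against -0.50 with all libraries (adjusted p = 0.255). Adam3, another sperm ADAM, fell by 1.35 in GSK126 (SE 0.40, adjusted p = 0.0259), a call lost without siCTL replicate 1 (0.0611) or 2 (0.0923) and without GSK126 replicate 1 (0.0817) or 3 (0.104). By contrast Adam23, a receptor-type ADAM known from neurons and without an active site, stood at 209 to 215 CPM in siBcat and 192 to 228 CPM in GSK126, against 216 to 232 CPM in siCTL, and was called in no comparison of all 9 libraries. Its log2 fold change in siBcat was -0.08 (SE 0.06, adjusted p = 0.330), and without GSK126 replicate 3 it was called lower (-0.09, adjusted p = 0.0430).

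Of 7 proteoglycan-cleaving ADAMTS genes 5 were tested: 2 fell and 3 were not called in siBcat, and 2 rose and 2 fell in GSK126. The called share was 40.0% in siBcat and 80.0% in GSK126, against 35.2% and 25.0% of all genes tested. Adamts1 (chromosome 16, 85793827 to 85803113) stood at 271, 271 and 280 CPM in siBcat and 622, 634 and 558 CPM in GSK126, against 768, 767 and 771 CPM in siCTL. The groups did not overlap, with siBcat lowest and siCTL highest. The log2 fold change was -1.49 in siBcat (SE 0.05, adjusted p = 2.01e-09), -0.35 in GSK126 (SE 0.05, adjusted p = 0.000495) and -1.14 between siBcat and GSK126 (SE 0.05, adjusted p = 8.46e-09). Its neighbour on the chromosome Adamts5, the major aggrecanase of mouse cartilage (85856173 to 85901828), stood at 112, 110 and 106 CPM in siBcat and 107, 113 and 92.2 CPM in GSK126, against 112, 109 and 108 CPM in siCTL. These overlap throughout, with log2 fold changes of -0.01 in siBcat (adjusted p = 0.933) and -0.08 in GSK126 (adjusted p = 0.414). Per kilobase the ratio of Adamts1 to Adamts5 was 4.17 ± 0.209 in siBcat and 9.67 ± 0.366 in GSK126, against 11.6 ± 0.217 in siCTL (SD, n = 3 each).

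Adamts4, the other aggrecanase (chromosome 1, 171250421 to 171260637), stood at 42.5, 39.7 and 41.7 CPM in siBcat and 22.1, 19.5 and 18.5 CPM in GSK126, against 39.1, 39.0 and 34.97 CPM in siCTL. It fell by 0.91 on the log2 scale in GSK126 (SE 0.08, adjusted p = 3.51e-06), and in siBcat its value was 0.13 (SE 0.07, adjusted p = 0.188). The direct contrast was 1.04 (SE 0.08, adjusted p = 3.24e-07). Adamts15 (chromosome 9, 30899155 to 30922452) had 10, 6 and 12 counts in siBcat and 262, 216 and 230 in GSK126, against 48, 20 and 24 in siCTL. In CPM these were 0.243, 0.121 and 0.263 in siBcat and 4.63, 4.96 and 4.46 in GSK126, against 1.09, 0.441 and 0.509 in siCTL. No group overlapped another: the fold was 6.91 up in GSK126 (log2 2.79, SE 0.27, adjusted p = 1.12e-05), with -1.70 in siBcat (SE 0.40, adjusted p = 0.00552) and -4.49 between siBcat and GSK126 (SE 0.32, adjusted p = 3.2e-07). Adamts9, a widely expressed versicanase, stood at 1.27, 1.13 and 1.18 CPM in siBcat and 3.07, 3.31 and 2.21 CPM in GSK126, against 1.76, 1.63 and 1.27 CPM in siCTL. It rose in GSK126 by 0.88 (SE 0.19, adjusted p = 0.00533), and in siBcat its value was -0.38 (SE 0.21, adjusted p = 0.181).

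Enzymes that trim procollagen differed from each other. Adamts14, a procollagen N-proteinase, fell with both treatments: it stood at 30.7, 34.8 and 29.1 CPM in siBcat and 26.3, 25.5 and 21.8 CPM in GSK126, against 48.8, 48.1 and 41.3 CPM in siCTL. The values were -0.55 in siBcat (SE 0.09, adjusted p = 0.000523) and -0.91 in GSK126 (SE 0.09, adjusted p = 1.86e-05), and GSK126 was the lower of the treatments (siBcat against GSK126 0.36, adjusted p = 0.00743). Adamts2, the more abundant N-proteinase, stood at 268 to 292 CPM in siBcat and 240 to 272 CPM in GSK126, against 231 to 275 CPM in siCTL. It was called in no comparison before the trend on coding length was removed. With that trend removed it was called higher in siBcat, by 0.157 against siCTL (adjusted p = 0.0260) and 0.161 against GSK126 (0.0192). Adamts7 and Adamts12, which cleave cartilage oligomeric matrix protein, both fell in siBcat. Adamts7 stood at 13.7, 12.02 and 15.01 CPM in siBcat and 22.3, 19.2 and 20.2 CPM in GSK126, against 24.3, 23.4 and 22.4 CPM in siCTL (siBcat -0.78, SE 0.09, adjusted p = 2.4e-05). Adamts12 stood at 79.6, 76.6 and 79.8 CPM in siBcat and 146, 150 and 84.8 CPM in GSK126, against 118, 115 and 113 CPM in siCTL. Its siBcat value was -0.55 (SE 0.18, adjusted p = 0.0364), lost without any 1 siBcat or siCTL library (adjusted p 0.0660 to 0.0842). In GSK126 it was 0.14 (SE 0.17, adjusted p = 0.601), and a rise of 0.36 was called without GSK126 replicate 3 (adjusted p = 2.78e-07). Adamts6, which acts with fibrillin, stood at 8.08, 7.89 and 8.14 CPM in siBcat and 7.70, 8.68 and 4.04 CPM in GSK126, against 9.86, 10.8 and 9.76 CPM in siCTL. Both treatments lay below siCTL in every library, without a call: -0.34 in siBcat (SE 0.21, adjusted p = 0.252) and -0.58 in GSK126 (SE 0.21, adjusted p = 0.0711). Without GSK126 replicate 3 both were called, at -0.34 in siBcat (0.00415) and -0.31 in GSK126 (0.0232), and the GSK126 value was also called without GSK126 replicate 2 (0.0196). Its relative Adamts10 was lower in siBcat by 0.17 on the log2 scale (adjusted p = 0.0296), a call lost without siBcat replicate 2 (0.112), siBcat replicate 3 (0.0685), siCTL replicate 1 (0.0781) or siCTL replicate 2 (0.0628).

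Of 4 tested ADAMTS-like genes, which lack the proteinase domain, 1 rose and 1 fell in siBcat, and 3 rose in GSK126. This makes 50.0% called in siBcat and 75.0% in GSK126, against 35.2% and 25.0% of all genes tested. Adamtsl3 stood at 10.1, 9.92 and 10.6 CPM in siBcat and 8.48, 7.81 and 5.55 CPM in GSK126, against 4.25, 4.496 and 4.80 CPM in siCTL. It rose by 1.18 in siBcat (SE 0.14, adjusted p = 3.4e-05) and by 0.69 in GSK126 (SE 0.14, adjusted p = 0.0036), and siBcat was the higher (0.49, SE 0.13, adjusted p = 0.0107). Adamtsl5 stood at 41.2, 44.97 and 37.6 CPM in siBcat and 51.8, 50.9 and 57.3 CPM in GSK126, against 34.7, 35.9 and 22.9 CPM in siCTL. It rose in GSK126 by 0.78 (SE 0.15, adjusted p = 0.004), a call lost without GSK126 replicate 3 (0.0521), and its 0.40 in siBcat (SE 0.15, adjusted p = 0.0567) was called without siCTL replicate 1 (0.0497) or 2 (0.0364). Adamtsl4, a fibrillin-binding protein, went the other way, at 33.2, 29.0 and 29.5 CPM in siBcat and 45.5, 46.9 and 41.5 CPM in GSK126, against 44.1, 46.8 and 36.4 CPM in siCTL (siBcat -0.47, SE 0.09, adjusted p = 0.00148). Adamtsl1 was at 0.283 to 0.390 CPM in siBcat and 0.349 to 0.742 CPM in GSK126, against 0.170 to 0.264 CPM in siCTL. Its rise in GSK126 (1.38, SE 0.40, adjusted p = 0.0248) was lost without GSK126 replicate 1 (0.119), siCTL replicate 1 (0.0796) or siCTL replicate 3 (0.0916).

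In the direct contrast the genes with the widest gaps were those already described. Timp1, Adamts4, Mmp13 and Mmp3 were at least 2-fold higher in siBcat than in GSK126, against 1.81% of all genes tested. Adamts15, Adamts9, Adamts1, Mmp15 and Adam12 were at least 2-fold lower, against 4.21%. The Mmp3 call rests on few counts with overlapping libraries. It was lost in 13 of 16 alternative fits, so the Mmp3 fold is no measure of size. Smaller gaps in the same contrast were Mmp11 (-0.65, adjusted p = 5.31e-07), Adamts7 (-0.60, adjusted p = 0.000156), Adamtsl4 (-0.55, adjusted p = 0.000399) and Adamts12 (-0.69, adjusted p = 0.0115). The Adamts12 gap was lost without GSK126 replicate 1 (0.0526) or 2 (0.0503). Mmp28, epilysin, was lower in siBcat (3.33 to 4.24 CPM) than in GSK126 (4.23 to 6.89 CPM, log2 fold change -0.61, SE 0.17, adjusted p = 0.0128), and the call was lost without GSK126 replicate 1 (0.0630) or siBcat replicate 3 (0.0661). Against siCTL (4.84 to 5.43 CPM) Mmp28 gave -0.42 in siBcat (adjusted p = 0.0812) and 0.19 in GSK126 (adjusted p = 0.435), and both were called without GSK126 replicate 3, at -0.42 (0.00726) and 0.39 (0.0280). Mmp19 (0.15, adjusted p = 0.0258), Mmp23 (0.21, adjusted p = 0.0139) and Adam15 (0.23, adjusted p = 0.0189) were higher in siBcat. Mmp19 lost that call without GSK126 replicate 2 (0.0591), siBcat replicate 1 (0.0576) or siBcat replicate 3 (0.102). Mmp23 lost it without GSK126 replicate 1 (0.0527) or 2 (0.0505), and Adam15 without GSK126 replicate 2 (0.0680) or siBcat replicate 1 (0.0646). With library size as the only scaling these 3 calls were lost too (adjusted p 0.239, 0.106 and 0.0996).

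Partners of the proteinases were taken from lists of other genes. Of 14 tested activators, membrane anchors and clearance receptors, 5 rose and 3 fell in siBcat, and 3 rose and 2 fell in GSK126. Called were 57.1% in siBcat and 35.7% in GSK126, against 35.2% and 25.0% of all genes tested. Cd44, a docking protein for Mmp9 and Mmp14, was at 267 to 275 CPM in siBcat and 138 to 157 CPM in GSK126, against 146 to 154 CPM in siCTL, a rise of 0.85 in siBcat (SE 0.06, adjusted p = 2.95e-07). Reck, a membrane-anchored MMP inhibitor, fell by 0.43 in siBcat (SE 0.08, adjusted p = 0.00105), and Tspan14, a tetraspanin that carries Adam10, by 0.38 (SE 0.05, adjusted p = 0.000185). Pcsk6, a proprotein convertase, was at 19.9 to 21.9 CPM in siBcat and 44.9 to 47.7 CPM in GSK126, against 15.9 to 18.3 CPM in siCTL, a rise of 1.42 in GSK126 (SE 0.07, adjusted p = 6.46e-08). Of 4 tested genes of the tolloid procollagen C-proteinases and their enhancers, Bmp1, a C-proteinase, fell by 0.34 on the log2 scale in GSK126 (SE 0.05, adjusted p = 0.000318) and the other three were not called there. In this list 50.0% were called in siBcat and 25.0% in GSK126, against 35.2% and 25.0% of all genes tested. In siBcat Bmp1 fell by 0.14 on the log2 scale (SE 0.05, adjusted p = 0.0437), a call lost without any 1 siBcat library (0.0575 to 0.151), siCTL replicate 1 (0.163), siCTL replicate 2 (0.107) or GSK126 replicate 1 (0.0548). Pcolce2, an enhancer, rose there by 0.47 (SE 0.15, adjusted p = 0.0251), a call lost without siBcat replicate 1 (0.0936), siBcat replicate 2 (0.0757) or siCTL replicate 2 (0.121).

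Of 8 tested genes of the plasminogen system, which activates several MMPs, 3 rose and 5 were not called in siBcat, and 1 rose and 3 fell in GSK126. The share called was 37.5% in siBcat and 50.0% in GSK126, against 35.2% and 25.0% of all genes tested. Plat, the tissue plasminogen activator, fell by 0.84 on the log2 scale in GSK126 (SE 0.06, adjusted p = 5.65e-07), and Serpinb2, PAI-2, rose in siBcat by 1.51 (SE 0.16, adjusted p = 1.46e-05). Products of AP-1 genes bind TGANTCA. Of 8 tested AP-1 genes 37.5% were called with each treatment, against 35.2% of all genes in siBcat and 25.0% in GSK126. The siBcat share is thus near that of all genes. With each treatment 5 were not called and 3 rose. In siBcat these were Fosb (0.89, SE 0.17, adjusted p = 0.00111), Jun (0.72, SE 0.16, adjusted p = 0.00689) and Fosl2 (0.17, SE 0.06, adjusted p = 0.0401), and in GSK126 Atf3 (0.66, SE 0.14, adjusted p = 0.00455), Fos (0.40, SE 0.09, adjusted p = 0.00648) and Jun (0.61, SE 0.16, adjusted p = 0.0229). The siBcat call of Fosl2 was lost without any 1 siBcat or siCTL library (0.0777 to 0.167), with library size only (0.0669) or without the filter on low counts (0.0574). The siBcat call of Jun was lost with only the 2 groups compared (0.0664). The GSK126 call of Jun was lost without GSK126 replicate 1 (0.0602) or 3 (0.130), without the filter (0.0678) or with the length trend removed (0.0563). In siCTL replicate 3 Jun stood at 26.2 CPM and Junb at 27.03 CPM, against 38.3 to 43.5 and 60.3 to 65.9 CPM in the other siCTL libraries; both Jun calls held without that library.

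Substrates moved in both directions. Of 14 tested matrix substrates 4 rose and 5 fell in siBcat, and 3 rose and 4 fell in GSK126. That is 64.3% called in siBcat and 50.0% in GSK126, against 35.2% and 25.0% of all genes tested. The proteoglycan brevican (Bcan) was at 4.49 to 5.11 CPM in siBcat and 1.42 to 1.73 CPM in GSK126, against 0.588 to 0.970 CPM in siCTL (siBcat 2.72, SE 0.19, adjusted p = 3.62e-07). Decorin (Dcn) was low throughout, at 0.700 to 0.925 CPM in siBcat and 1.63 to 2.05 CPM in GSK126, against 3.53 to 4.16 CPM in siCTL (siBcat -2.25, SE 0.17, adjusted p = 8.09e-07). Col3a1 fell by 1.17 on the log2 scale in GSK126 (SE 0.06, adjusted p = 7.52e-08), and Col2a1 rose there by 2.34 (SE 0.13, adjusted p = 1.23e-06). Of 15 tested proteins shed by ADAMs, 5 rose and 4 fell in siBcat, and 1 rose and 3 fell in GSK126. Called were thus 9 of the 15 in siBcat and 4 of the 15 (26.7%) in GSK126, against 35.2% and 25.0% of all genes tested. The GSK126 share is near that of all genes. Il6ra, the interleukin 6 receptor, was at 10.9 to 12.3 CPM in siBcat and 15.6 to 19.6 CPM in GSK126, against 28.7 to 29.1 CPM in siCTL. It fell by 1.33 on the log2 scale in siBcat (SE 0.09, adjusted p = 3.01e-07) and by 0.67 in GSK126 (SE 0.09, adjusted p = 0.000148). Hbegf, a ligand released by Adam17 and Adam12, rose in siBcat by 0.64 (SE 0.08, adjusted p = 3.46e-05).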

How the data were processed

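The authors deposited a table of whole-number read counts per gene for the 9 libraries, 3 per group; the submitters' processing notes name TopHat2 2.0.6, HTSeq, bcl2fastq and the build mm10, without settings, annotation or strand. Every deposited count is even, and the reason is not known, so that halved counts were one of the alternatives. The table also holds 6 columns of per-sample values with no sample here, which were not used. From the counts, genes were kept by edgeR 4.0.16 filterByExpr (minimum count 10, total 15), leaving 13240 and removing 10118. They were scaled by TMM and fitted over all 9 libraries with the robust quasi-likelihood F-test in R 4.3.3 (limma 3.58.1), with Benjamini-Hochberg adjustment across every gene tested and calls under an adjusted p of 0.05. The residual degrees of freedom were 6 and the common biological coefficient of variation 8.12%. SE is the absolute log2 fold change over the square root of F, and levels per length divide CPM by the table's coding length. Depth sets the detection floor of 3 counts, which covers counting error only. The fit was tested on simulated data.

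Groups follow the sample titles. The 3 comparisons were siBcat with siCTL, GSK126 with siCTL and siBcat with GSK126, and 18 alternatives were run, among them DESeq2 1.42.0. Gene coordinates are from GENCODE M21 on GRCm38 (83 of 83 matched), and promoters from RefSeq on GRCm38.p6. The members and lists were chosen with earlier results of these data known. Named genes are called ones of at least 2 CPM without overlap, up to 14 per direction, fixed genes (the TIMPs, Mmp2, Mmp9, Mmp13, Mmp14, Adam10, Adam17, Adamts1, Adamts4 and Adamts5), the highest of each list, and up to 3 genes per other list and comparison. Mmp3, Adam3, Adam5, Adam8, Adam11, Adam19, Adamts6, Adamtsl1, Junb and genes that overlap a member were singled out after their values were seen. Some results of other genes are not reported here.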

Additional observations from a re-analysis of the deposited data

How the results depend on the processing

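Over 18 alternatives, 18 of the 26 calls of the metalloproteinase genes in siBcat against siCTL, 10 of 17 in GSK126 against siCTL and 16 of 23 in siBcat against GSK126 were called in each alternative that gave a value. Among those held, Mmp3 in siBcat against siCTL gave a value in only 15. Of 62 calls of other genes 49 held in each and 13 were lost in at least 1. Of 1844 alternative values of the 103 fold changes drawn on, 1664 kept direction and side of the threshold, 104 lost a call, 41 gained one and 35 changed sign. No scaling moved the median of all genes by more than 0.08 on the log2 scale. Leaving out 1 library gave 12 to 24 lower genes of the families in siBcat against siCTL (20 with all libraries), 5 to 9 higher ones in GSK126 against siCTL (8), and 5 to 8 higher ones in siBcat against GSK126 (9), which also came to 5 with library size only. With the coding length trend removed, 2573 of all genes were lower in GSK126 than in siCTL, against 1419, and 3991 were higher in siBcat than in GSK126, against 2549. Leaving out 1 library moved these totals between 988 and 1815 and between 2053 and 3061. The cause was not tested.

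These 35 sign changes were of values not called with all libraries, and the Mmp23 value with the length trend removed (-0.11 in GSK126 against siCTL, adjusted p = 0.0377) was the one called after the change. With the length trend removed, siBcat against siCTL gave 0.000592 for Adam23 and 0.0744 for Adamts5, GSK126 against siCTL 0.000676 for Adamts5 and -0.00397 for Adamts2, and siBcat against GSK126 0.0162 for Adam23 and 0.00491 for Adamts10. With library size only, GSK126 against siCTL gave 0.0277 for Mmp11 and 0.0210 for Timp2. Adam10 in GSK126 against siCTL was -0.000608 with DESeq2 size factors, -0.000619 with DESeq2 and -0.00559 with only the 2 groups compared, and Adam23 in siBcat against GSK126 was 0.000763 in that last setting. Leaving out 1 library gave, in siBcat against siCTL, -0.00362 to 0.103 for Timp3 and -0.0365 to 0.0152 for Adamts5. In GSK126 against siCTL it gave -0.0355 to 0.00963 for Mmp11, -0.0503 to 0.0577 for Mmp23, -0.0354 to 0.00529 for Timp2, -0.0506 to 0.103 for Adam10, -0.0500 to 0.0787 for Adamts2, -0.00225 to 0.358 for Adamts12 and -0.0277 to 0.137 for Adamtsl4. In siBcat against GSK126 it gave -0.199 to 0.0575 for Adam19, -0.0845 to 0.0382 for Adam23 and -0.00776 to 0.139 for Adamts5. Of 29 further fold changes, 7 changed sign in at least 1 alternative, in Adam1a, Adam4, Adam8, Adamts6 and Mmp16. Some were not small: Adam4 in siBcat against siCTL was 0.61 with all libraries and -0.11 without siBcat replicate 3, and in GSK126 against siCTL 0.38 and, without GSK126 replicate 1, -0.35; none was called before or after the change (lowest adjusted p after it 0.629).

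Deviations of same-numbered libraries correlated by -0.0306 to 0.0688, and those of other pairs between groups by -0.0742 to 0.0574. Values this small cannot settle whether a number marks a shared mouse, day or batch, which the sources used here do not give. With the replicate block 7 genes of the families were higher and 18 lower in siBcat against siCTL, 8 and 9 in GSK126 against siCTL, and 8 and 15 in siBcat against GSK126. Of all genes called with the block 50.5%, 57.0% and 47.2% were higher in these 3 comparisons, against 50.3%, 57.1% and 46.8% without it. The 39 genes that were not tested had too few counts to pass the filter, so differences in them were not examined.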
